A study of Rattus norvegicus with 16 samples.

Results

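The comparison described here sets sutured rat corneas treated with dexamethasone against naïve corneas. Its members were chosen by the labels alone: the 4 arrays labelled as sutured cornea treated with dexamethasone (F25, F26, F27 and F30) and the 4 arrays of non-sutured, untreated cornea (naïve 1 to 4), which together are 8 of the 16 arrays of the series. Genes were read from the 20826 probe sets that name a single gene, out of 31042 without controls, which gave 14217 genes. All animals were male wistar rats aged 12 to 16 weeks. In the treated animals 2 sutures were placed into the temporal cornea, 1.5 mm from the limbus, and dexamethasone drops (Opnol, 1 mg/ml) were given 4 times a day for 2 days, 8 drops in all. The labels give the tissue as cornea without the scleral rim, whereas the methods of the study describe only the stretch from the sutures to the limbus, so the extent of tissue on the arrays is uncertain. The naïve corneas had neither sutures nor drops, so the injury and the drug cannot be told apart in this comparison. A further 4 arrays of sutured corneas that received goat IgG drops on the same schedule, labelled as anti-IgG antibody (F17, F19, F22 and F23) were used to show where a gene differs between dexamethasone and a sham treatment of the same injury. Per the methods each cornea had its own chip, and the sutured corneas were right ones, so the sutured arrays came from separate animals. Which eye the naïve corneas came from is not given. The remaining 4 arrays, of sutured corneas labelled as treated with anti-VEGFA antibody, are not compared here. They did enter the fit behind the adjusted p-values, which thus measure the spread within groups over all 16 arrays.

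A suture in the cornea wounds the epithelium and stroma of a tissue that normally has no vessels and few leukocytes. Injured epithelial cells and keratocytes release IL-1, chemokines and growth factors, neutrophils and then monocytes enter from the limbal vessels, and a provisional matrix and new basement membrane are laid down while the epithelium migrates and divides. Dexamethasone binds the glucocorticoid receptor (*Nr3c1*), which enters the nucleus, switches on genes such as *Tsc22d3*, *Fkbp5* and *Klf9*, and restrains transcription driven by NF-κB and AP-1. It is used on the eye against inflammation and vessel growth.

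The values are log2 signals per probe set, so a difference of 1 is a 2-fold change. A gene was called a DEG when its adjusted p was under 0.05 and its fold change at least 1.5 against naïve cornea, and differences from IgG were called at an adjusted p under 0.05 with no fold limit. Array medians ranged from 6.55 to 6.62. In a principal component analysis of these 8 arrays the leading component (56.4% of variance) set the treated corneas apart from the naïve ones. The next (21%) placed naïve arrays 1 and 2 with F26 and F27 on one side and naïve arrays 3 and 4 with F25 and F30 on the other, a split that no label describes. The log2 difference between the 5′ and 3′ beta-actin control probe sets, which falls when RNA is shorter or less completely copied, was -1.69 and -1.75 on naïve arrays 1 and 2 and -0.87 and -0.82 on naïve arrays 3 and 4, and, with dexamethasone, -1.38 and -1.35 on F26 and F27 and -0.95 and -0.99 on F25 and F30. It thus split the 8 arrays in the same way as that component, within both groups (exact permutation test between the groups, p = 0.66). With this difference as a covariate 1834 genes were called, 1734 of them among the 1797 called without it. Spiked poly-A controls averaged 4.94 ± 0.15 (SD, n = 4) with dexamethasone and 4.88 ± 0.1 in naïve cornea (exact permutation test, p = 0.54). Against IgG the arrays did differ in both: the poly-A controls differed by -1.71 and the beta-actin difference by -0.46 on the log2 scale (dexamethasone minus IgG), each with the smallest two-sided p that 4 against 4 arrays allow (exact permutation test, p = 0.029). RNA handling and treatment can therefore not be told apart where dexamethasone is set against IgG.

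Against naïve cornea 1797 genes were called, 12.6% of all genes, with 1164 higher (8.19%) and 633 lower (4.45%). At least 4-fold changes were found for 125 genes that rose and 18 that fell, and at least 10-fold changes for 36 that rose and 0 that fell (limma). With the arrays centred on 9 reference genes the split was 984 higher and 852 lower, and the median of all genes moved from 0.004 to -0.068. The 4 treated and 4 naïve arrays did not overlap for 4030 genes (28.3%), among them 1646 of those called. F25 was the mildest of the treated arrays: it was the lowest of the 4 for 671 of the 1164 genes called higher and the highest for 386 of the 633 called lower, whereas F26 was the highest for 502 and the lowest for 305. Against IgG 1054 genes were higher (7.41%) and 449 lower (3.16%). Both comparisons use the same dexamethasone arrays, so their values are given side by side and not counted together.

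**Figure D1:**
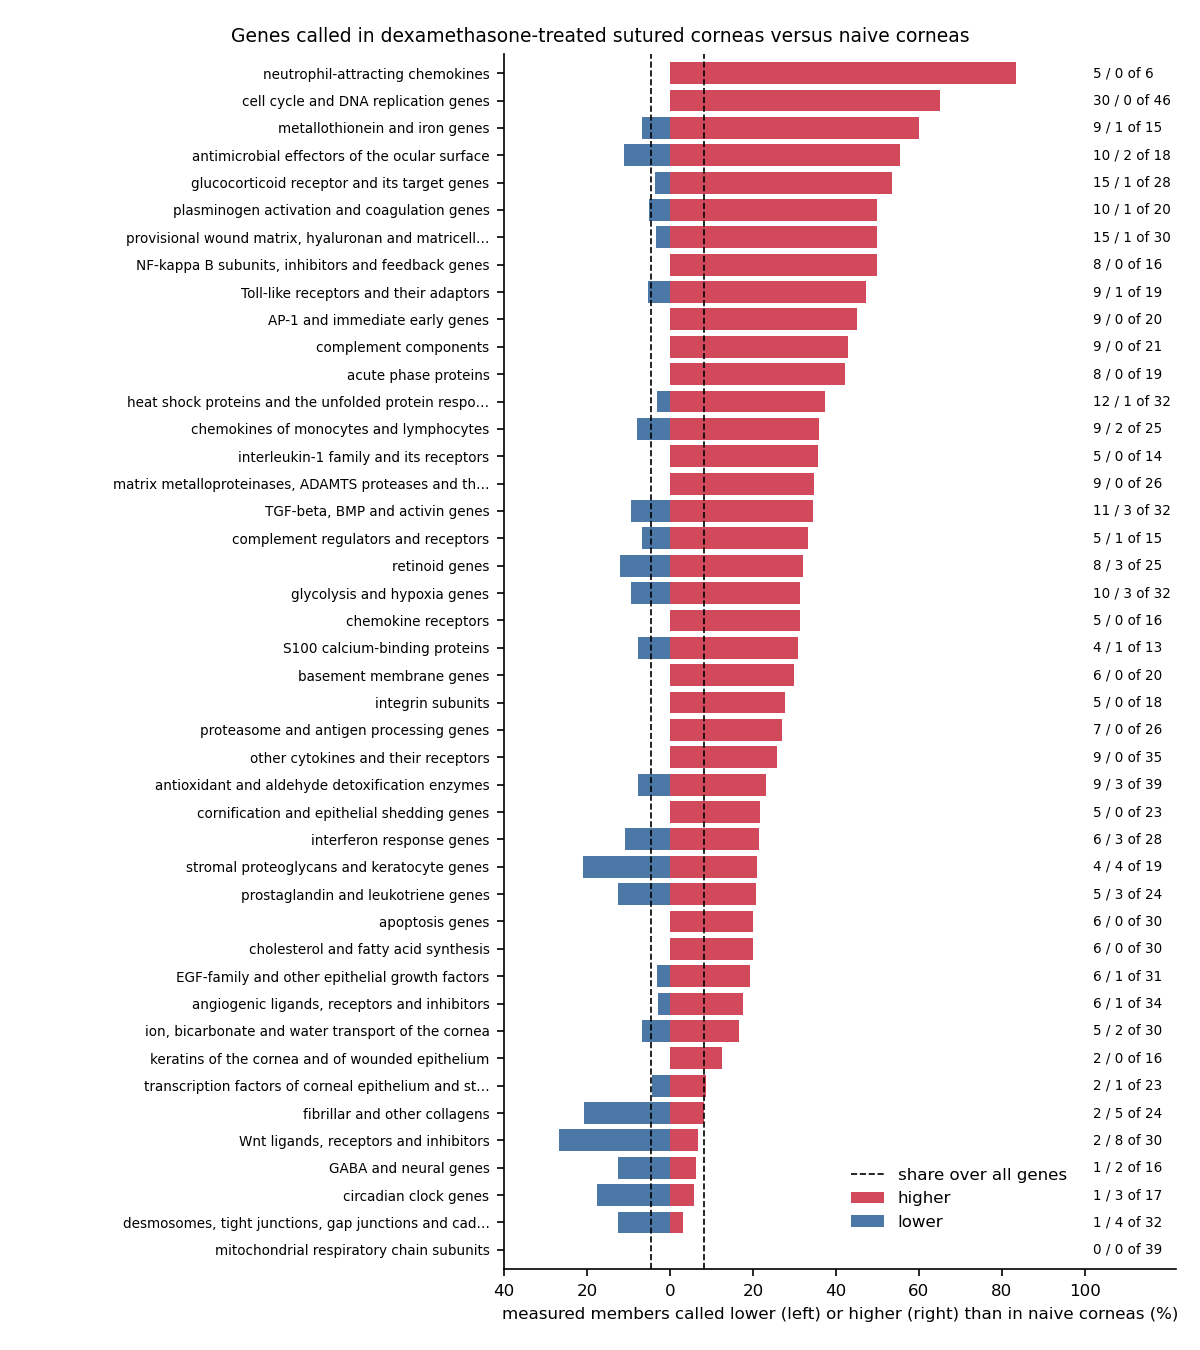
Share of the measured genes of 44 process lists called higher (red, to the right) or lower (blue, to the left) with dexamethasone than in naïve cornea, in percent; dashed lines are the shares over all genes, 8.19% higher and 4.45% lower, and the numbers at the right give members higher and lower of those measured. Neutrophil-attracting chemokines (5 of 6), cell cycle genes (30 of 46) and metallothionein and iron genes (9 of 15) had the largest shares higher, Wnt genes (8 of 30) the largest share lower, and 0 of 39 respiratory chain subunits were called.

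Markers of corneal epithelium read high. Some lens and retina genes, given below, were raised too, and *Myh1*, a skeletal muscle marker, read up to 11.28 (F27). *Krt12*, the keratin that defines corneal epithelium, read 14.76 ± 0.02 in naïve and 14.70 ± 0.02 in treated cornea (mean ± SD, n = 4), near the top of the scale, and *Pax6* and *Aldh3a1*, the master regulator and the abundant crystallin-like enzyme of this epithelium, read 12.32 ± 0.26 and 14.43 ± 0.06 with treatment. By limma, 0 of 12 markers of conjunctiva and goblet cells were called (1 had an unadjusted p under 0.05), 0 of 7 of B and plasma cells (0 with an unadjusted p under 0.05) and 1 of 20 of T and NK cells (*Cd8a*, a call lost without F25, F26, F30 or naïve array 1, 2 or 4). The brightest markers of these lists, *Krt13*, *Cd22* and *Lck*, were 0.16, 0.10 and 0.00 (not called). Of 14 pan-leukocyte markers 8 rose and 0 fell, with a median log2 difference of 0.79 against 0.004 over all genes, and of 18 monocyte and macrophage markers 12 rose and 0 fell, with a median of 1.72. Of 11 corneal epithelium markers 2 rose and 0 fell. The level of the macrophage list lay between 6.39 and 6.66 in naïve and between 7.72 and 8.47 in treated cornea, as the mean log2 signal of its 18 genes. In a tissue of several cell types, more cells of a type and more RNA per cell cannot be told apart.

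*Ptprc*, which encodes the leukocyte antigen CD45, read 4.18, 4.14, 4.25 and 4.04 on the naïve arrays and 6.62, 8.37, 8.03 and 7.50 on F25, F26, F27 and F30. Every treated array was above every naïve array, F25 was the lowest of the 4, and the log2 difference was 3.48 (SE 0.30, adjusted p = 8.6e-07). *Fcgr2b*, the inhibitory IgG receptor of myeloid and B cells, read 4.80, 4.57, 4.88 and 4.93 without and 8.12, 9.05, 8.63 and 8.54 with treatment. *Ctss*, the lysosomal protease that trims the MHC class II invariant chain, read 7.41, 7.39, 7.28 and 7.38 in naïve cornea and 9.09, 9.09, 9.09 and 9.10 on the 4 treated arrays, which differed from each other by far less than from the naïve ones. It was also higher than with IgG, by 0.49 (adjusted p = 0.028). Of 18 monocyte and macrophage markers 2 were above IgG, *Ctss* among them, and 1 was below, beside 7.41% and 3.16% of all genes. Those 2 calls were lost without F26 and with the beta-actin difference as a covariate. No pan-leukocyte or neutrophil marker was called against IgG. Of 20 T and NK cell markers 4 were lower than with IgG, beside 3.16% of all genes. That count was 1 without F26 and 0 with a low signal filter. *Cd53*, a tetraspanin of leukocytes, rose by 3.81, and *Itgb2*, the beta chain of their integrins, *Lcp1*, which bundles actin, and *Coro1a*, coronin, by 1.82, 1.90 and 1.49. *Arhgdib*, the brightest of the pan-leukocyte markers, was 0.24 (not called). *Fcer1g* and *Aif1*, the common gamma chain of Fc receptors and a calcium-binding protein of macrophages, rose by 3.24 and 3.01, while *Lgals3*, galectin 3, which corneal epithelium also makes, was -0.03 (not called). *Mrc1* and *Cd163*, scavenger receptors of tissue macrophages, rose by 3.26 and 1.83 on the log2 scale, and *Ccr2*, the receptor for *Ccl2* on monocytes, by 1.06. Of 14 neutrophil markers 7 rose: *S100a9* and *S100a8*, the subunits of calprotectin, rose by 5.83 and 4.83, and *Lcn2*, which binds bacterial siderophores, by 1.63. The others included *Csf3r*, the receptor for granulocyte colony stimulating factor (3.26), and *Cxcr2*, the receptor for CXC chemokines such as *Cxcl1* (1.00).

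Of 6 measured chemokines listed as attracting neutrophils, 5 were higher than in naïve cornea and 0 lower (median log2 difference 2.22). *Cxcl1* read 8.84, 8.57, 8.75 and 8.19 on the naïve arrays and 10.52, 12.08, 11.63 and 11.18 on the treated arrays, a difference of 2.76 (SE 0.27, adjusted p = 3.5e-06), and the groups did not overlap. *Cxcl6* read 4.51, 4.31, 4.89 and 4.59 without and 5.71, 6.10, 8.19 and 7.97 with treatment. Here F25 and F26 stayed about 2 log2 units under F27 and F30, and all 4 lay below the IgG arrays (8.42, 9.05, 8.86 and 9.05), the difference from IgG being -1.85 (adjusted p = 0.011). *Cxcl3* and *Pf4* rose by 1.74 and 2.03. *Cxcl2* rose by 3.73 (adjusted p = 4.7e-05), with F25 at 8.14 and the nearest other treated array at 10.30. Of 25 chemokines that act on monocytes and lymphocytes 9 rose and 2 fell. *Ccl2*, which draws monocytes, had the largest rise of all genes without overlap: it read 5.10, 4.38, 4.77 and 4.45 in naïve cornea, 10.28, 10.84, 11.02 and 10.77 with treatment and 10.02, 11.37, 11.37 and 11.84 with IgG (6.05 against naïve, SE 0.30, adjusted p = 3.9e-09). *Ccl7*, a ligand of *Ccr2*, read 4.41, 4.44, 4.66 and 4.76 in naïve cornea and 7.81, 8.76, 8.27 and 9.15 with treatment (3.93, adjusted p = 5.1e-07). *Ccl3*, which signals through *Ccr1*, rose by 1.08 and was the member of this list higher than with IgG (0.62, adjusted p = 0.013), and *Ccr1* itself rose by 2.96. *Ccl6* rose by 1.50. *Cxcl14*, a chemokine made by resting epithelia, read 11.37, 11.09, 10.49 and 10.52 without and 8.03, 7.37, 8.12 and 8.34 with treatment (-2.90, adjusted p = 6.7e-07). *Cxcl12*, the homeostatic ligand of *Cxcr4*, fell: its naïve arrays read 9.51, 9.43, 9.92 and 9.60 and its treated arrays 8.60, 7.96, 7.76 and 8.40, without overlap (-1.44, adjusted p = 0.00052). *Cxcr4* rose by 0.63 (adjusted p = 0.023), a call lost without F26, F30 or naïve array 2 or 4, and was -0.72 against IgG. Of 16 chemokine receptors 5 rose and 0 fell, and the count was 3 without F26 and 3 without naïve array 2. *Ackr4*, a scavenging receptor, rose by 0.78, a call lost without either of those arrays, and *Ackr3* was -0.36 (not called).

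The bases upstream of the annotated starts of *Cxcl1*, *Cxcl2* and *Nfkbia* are shown because each holds a match to the NF-κB consensus, here in capitals, within 100 bases of the start. Sequences are from RefSeq on build GRCr8, read 5′ to 3′ on the strand of the gene and ending at the base before the start. The consensus was searched on both strands in the 250 bases before the start. It occurred in 3 of the 4 neutrophil-attracting chemokines with a promoter in the table. It was also found in 4 of 20 chemokines of monocytes and lymphocytes and in 6 of 13 genes of the NF-κB list. The shares were 4.27% of all 27457 promoters, 5.37% of all genes measured, 8.32% of the 938 genes called higher and 4.36% of the 505 called lower. A match is a description of the letters and shows no binding.
Cxcl1 (chr14:17479322-17479441, minus strand): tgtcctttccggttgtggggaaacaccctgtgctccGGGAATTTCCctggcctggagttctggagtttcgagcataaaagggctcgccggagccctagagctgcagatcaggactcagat
Cxcl2 (chr14:17467256-17467375, minus strand): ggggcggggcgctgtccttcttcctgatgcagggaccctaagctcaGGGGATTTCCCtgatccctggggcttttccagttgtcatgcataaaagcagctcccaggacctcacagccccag
Nfkbia (chr6:78597073-78597192, minus strand): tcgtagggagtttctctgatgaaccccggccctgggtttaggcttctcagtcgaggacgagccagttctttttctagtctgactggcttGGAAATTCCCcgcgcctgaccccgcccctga
The match lies 84 bases before the start of *Cxcl1* and 31 bases before that of *Nfkbia*. *Cxcl2* holds 2 overlapping matches on the same strand, 73 and 74 bases before its start.

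Of 14 genes of the IL-1 family 5 were higher and 0 lower. The count was 8 without naïve arrays 3 and 4. *Il1r2*, the decoy receptor, read 5.45, 4.51, 5.66 and 5.83 in naïve cornea and 8.96, 10.48, 10.15 and 10.04 with treatment (4.54, adjusted p = 4.6e-08), and *Il1b*, the cytokine, rose by 3.45. *Il18*, the brightest member, was -0.42 (under the fold limit). *Il1rl1*, the receptor for IL-33, read 4.90, 4.63, 4.56 and 4.95 without and 6.92, 8.22, 7.46 and 7.76 with treatment (2.83, adjusted p = 5.2e-07), with no overlap. *Il1r1*, the signalling receptor, and its partner *Il1rap* rose by 1.32 and 0.95. For *Il1r1* the naïve arrays 1 and 2 read 7.90 and 7.87 and arrays 3 and 4 read 7.01 and 6.53, and the call was lost with the mean of its probe sets. Among other cytokines and receptors 9 of 35 rose and 0 fell. *Csf3*, which drives the production of neutrophils, rose by 2.10 (SE 0.51, adjusted p = 0.0068) and *Il4r*, the receptor for IL-4 and IL-13, by 1.19. *Il6*, an inducer of acute phase proteins, rose by 3.32 (adjusted p = 0.0025), *Csf1r*, the receptor for macrophage colony stimulating factor, by 1.49 and *Tnfrsf1a*, a TNF receptor, by 0.79. *Il24* rose by 1.43 (adjusted p = 0.042), a call lost without any array but F25 or F27.

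Of 16 NF-κB subunits, inhibitors and feedback genes 8 rose and 0 fell (median 0.65). *Icam1*, an adhesion molecule that binds leukocyte integrins, read 7.05, 6.98, 7.24 and 6.76 in naïve cornea and 9.42, 10.11, 10.10 and 10.51 with treatment, an 8.15-fold difference (adjusted p = 3.9e-08). *Nfkbia*, the inhibitor that holds NF-κB in the cytoplasm, read 9.52, 9.77, 10.05 and 10.07 without and 11.34, 11.56, 11.29 and 11.52 with treatment, and the arrays did not overlap. *Tnfaip3*, the A20 deubiquitinase that ends NF-κB signalling, rose by 1.55. Both inhibitors were also above IgG, by 0.67 and 0.51 (limma, adjusted p = 0.021 and 0.035). Both calls were lost without F26 or IgG array F19 or F22. That of *Tnfaip3* was also lost without F27 or IgG array F17 and with the beta-actin difference as a covariate. Of the subunits, *Nfkb1*, *Nfkb2* and *Relb* rose by 0.77, 1.51 and 1.03 and *Bcl3*, a nuclear IκB protein, by 1.72. *Nfkbiz*, another nuclear IκB protein, was -0.17 (not called). *Nfkb1* was lower than with IgG (-0.36, adjusted p = 0.012).

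Of 19 Toll-like receptors, adaptors and related genes 9 rose and 1 fell (median 0.40). *Clec7a*, the receptor for fungal beta-glucan on myeloid cells, rose by 2.52 (adjusted p = 2.0e-05), and *Tlr4* and its co-receptor *Ly96* by 1.21 and 0.76. *Tlr1*, which pairs with TLR2, rose by 1.06. *Tlr7* and *Tlr8*, which sense RNA in endosomes, rose by 1.01 and 1.25, and *Myd88*, the adaptor they share, rose by 0.77. All treated arrays of *Myd88* were above the closely grouped naïve ones. *Irak3*, which blocks signalling below these receptors, rose by 1.07. *Pycard*, the inflammasome adaptor, was the member that fell (-0.67, adjusted p = 0.038), a call that was lost when any of F26, F27, F30 and naïve arrays 1, 2 and 4 was left out.

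**Figure D2:**
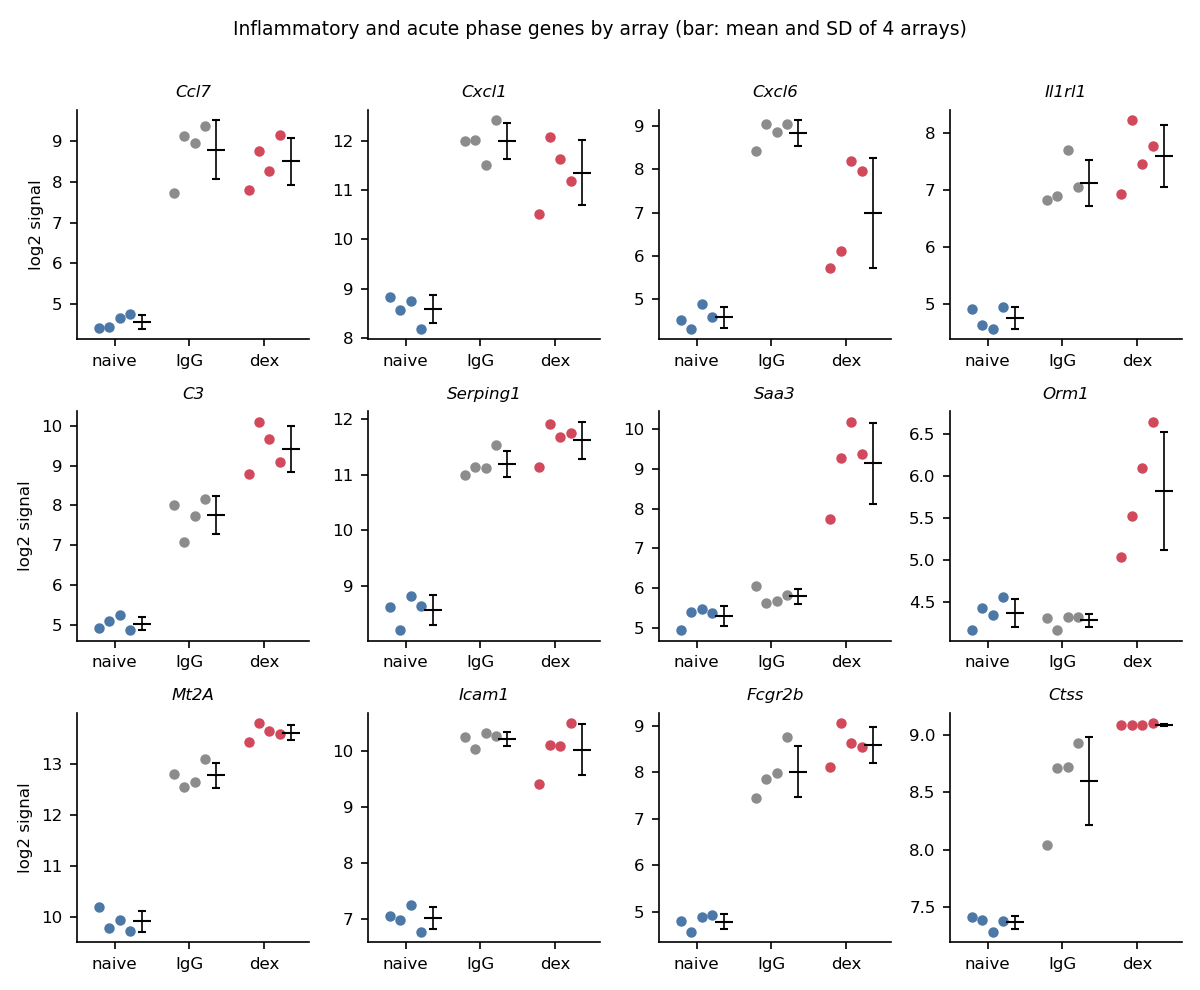
Log2 signal of 12 inflammatory, acute phase and metal-binding genes on each naïve (blue), IgG (grey) and dexamethasone (red) array, with the mean and SD of 4 arrays beside the points. Every treated array lies above every naïve array for all 12, while *Saa3* (7.73 to 10.18 against 5.63 to 6.05) and *Orm1* are set apart from IgG upwards and *Cxcl6* downwards.

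Acute phase proteins were among the genes that stood above both references. Of 19, 8 rose against naïve cornea and 0 fell (median 0.55), and 5 were above IgG. With a low signal filter 3 were above IgG. *Saa3*, a serum amyloid A made by macrophages and epithelia, read 4.94, 5.41, 5.47 and 5.38 in naïve cornea and 7.73, 9.27, 10.18 and 9.37 with treatment (3.84, SE 0.34, adjusted p = 1.1e-06). The IgG arrays read 6.05, 5.63, 5.68 and 5.82, close to the naïve ones, and the difference from IgG was 3.34 (adjusted p = 6.6e-05). *Orm1*, an acid glycoprotein that carries drugs and steroids in plasma, read 4.16, 4.42, 4.34 and 4.55 without and 5.03, 5.51, 6.09 and 6.64 with treatment, with IgG arrays at 4.31, 4.16, 4.32 and 4.32. *Serpina3n*, an inhibitor of leukocyte proteases, read 4.28, 4.22, 4.18 and 4.34 on the naïve arrays and 6.12, 6.20, 6.19 and 5.92 on the treated arrays. The treated arrays of *Serpina3n* lay close together and did not overlap either reference (1.85 against naïve, 1.49 against IgG). *Cp* and *A2m*, the copper carrier ceruloplasmin and the protease trap alpha-2-macroglobulin, were higher than naïve by 1.26 and 1.02 and higher than IgG by 0.79 and 0.75 (limma, adjusted p = 0.028 and 0.0057). *Fgb*, a fibrinogen chain, rose by 1.57, a call lost with the mean of its probe sets.

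Of 21 complement components 9 rose and 0 fell (median 0.21). *C3*, on which all complement pathways converge, read 4.93, 5.10, 5.24 and 4.86 on the naïve arrays and 8.79, 10.11, 9.67 and 9.11 on the treated arrays, with IgG between them at 8.01, 7.09, 7.74 and 8.16 (4.39 against naïve, 1.67 against IgG, adjusted p = 1.3e-08 and 0.00079). The proteases of the first component, *C1r* and *C1s*, rose by 2.28 and 3.09. *C1s* was also 0.605 above IgG (limma, adjusted p = 0.0245). That call was lost without F26, F27 or IgG array F17, F19 or F22 and with the beta-actin difference as a covariate. *Cfd*, factor D, rose by 1.42. The C1q chains *C1qa*, *C1qb* and *C1qc*, which macrophages make, rose by 1.34, 1.17 and 1.08. Against IgG they were -0.75, -0.52 and -0.67, none of which passed, with *C1qa* close to the limit (limma, adjusted p = 0.0516). Without IgG array F17, 3 of the complement components were called lower than with IgG. Of 15 regulators and receptors 5 rose and 1 fell (median 0.16). *Clu*, clusterin, which blocks the terminal complex, rose by 3.50 (adjusted p = 1.0e-08) and *C5ar1*, the receptor for C5a, by 1.71, while *Cd59b* was -0.06 (not called). *Serping1*, the inhibitor of C1r and C1s, read 8.62, 8.20, 8.82 and 8.63 without and 11.14, 11.91, 11.67 and 11.75 with treatment. *Cfi*, the protease that degrades C3b, rose by 2.00 and was below IgG (-1.54, adjusted p = 0.0027). *Cd55*, which speeds the decay of C3 convertases on cells, read 10.71, 10.89, 9.21 and 11.07 in naïve cornea and 9.04, 7.42, 7.79 and 7.88 with treatment. Its groups did not overlap, although naïve array 3 came close to F25 (-2.44, SE 0.50, adjusted p = 0.0021).

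Genes that bind or move metals rose in most cases. Of 15, 9 rose and 1 fell (median 1.58). *Mt2A*, a metallothionein that buffers zinc and copper, read 10.21, 9.79, 9.95 and 9.74 without and 13.43, 13.79, 13.64 and 13.57 with treatment, a 12.8-fold rise (SE 0.12 on the log2 scale, adjusted p = 4.3e-11). IgG arrays read 12.79, 12.55, 12.64 and 13.10, below every dexamethasone array (0.83, adjusted p = 0.00068). *Mt1* rose by 1.88. *Tfrc*, the transferrin receptor through which cells take up iron, read 7.42, 7.71, 8.05 and 8.15 in naïve cornea and 9.36, 9.86, 9.96 and 9.64 with treatment, while IgG arrays read 8.44, 8.29, 8.26 and 8.56. It was thus higher by 1.87 and 1.32 against the 2 references. The metalloreductases *Steap1*, *Steap2* and *Steap4* rose by 2.73, 1.83 and 1.78, and the zinc and iron importer *Slc39a14* by 1.29. *Slc30a1*, which exports zinc from cells, fell by 0.77 (adjusted p = 0.00085).

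The core of the metal response element, TGCACNC or TGCGCNC on either strand, occurred in the 250 bases before the start of 7 of 13 genes of this list and of 21.2% of all promoters, or 29.8% of all genes measured. Its sites are shown in capitals for *Mt2A*, whose stretch of 180 bases holds 3.
Mt2A (chr19:10838709-10838888, minus strand): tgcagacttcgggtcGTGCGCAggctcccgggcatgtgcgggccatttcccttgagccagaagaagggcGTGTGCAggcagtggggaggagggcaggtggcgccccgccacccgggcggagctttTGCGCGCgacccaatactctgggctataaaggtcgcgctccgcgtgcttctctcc
The sites begin 55, 111 and 165 bases before the start. The *Slc30a1* promoter also holds the core.

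Of 28 genes of the glucocorticoid receptor and its targets 15 rose and 1 fell against naïve cornea (median 0.66), and 8 were higher and 0 lower than with IgG (median 0.16 against 0.021 over all genes). *Klf9*, a Krüppel-like factor induced directly by the receptor, read 9.35, 9.31, 9.44 and 9.44 on the naïve arrays, 10.62, 10.64, 10.86 and 10.46 on the treated arrays and 9.70, 9.65, 9.60 and 9.57 with IgG. It separated dexamethasone from both references, by 1.26 and 1.01 (adjusted p = 4.4e-07 and 6.1e-05). *Tsc22d3*, the leucine zipper protein GILZ that blocks NF-κB and AP-1, read 10.15, 10.02, 9.96 and 9.85 without and 11.50, 10.86, 11.55 and 10.47 with treatment and 8.83, 8.85, 8.94 and 10.01 with IgG. F25 and F27 were above F26 and F30 (1.10 against naïve, 1.94 against IgG). The call against naïve cornea was lost when naïve arrays 3 and 4 were left out. *Fkbp5*, the co-chaperone that dampens the receptor, was likewise highest on F25 and F27: F25, F26, F27 and F30 read 10.46, 8.37, 9.71 and 8.41, the naïve arrays 9.15, 9.29, 9.26 and 9.36 and the IgG arrays 7.29, 7.46, 7.45 and 8.06. It did not pass against naïve cornea (-0.03, adjusted p = 0.97) and was 1.67 above IgG (adjusted p = 0.007). *Sgk1*, a kinase that activates epithelial sodium channels, rose by 0.63, a call lost without F27, and stood 0.61 above IgG, and of the channel subunits *Scnn1a* and *Scnn1b* rose by 1.34 and 0.87.

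*Dusp1*, *Cebpd* and *Zfp36*, a MAP kinase phosphatase, a transcription factor and an RNA-binding protein that destabilises cytokine mRNAs, are induced by injury as well as by the receptor. They rose by 1.09, 3.35 and 0.69 against naïve cornea, the last a call lost without F26, F27, F30 or naïve array 3 or 4, and their differences from IgG were 0.13, -0.21 and 0.22, none of which passed. *Nr3c1*, the receptor, was the member that fell: it read 9.67, 9.62, 9.41 and 9.25 in naïve cornea and 8.83, 8.60, 9.04 and 8.59 with treatment. All treated arrays were below all naïve arrays (-0.72, adjusted p = 0.00056), and the IgG arrays (8.82, 8.77, 8.60 and 8.95) overlapped the treated ones. The call was lost when naïve arrays 1 and 2 were left out. *Anxa1*, annexin 1, the brightest member, was 0.14 (not called). The half-site of the receptor, TGTTCT on either strand, was found before 1 of 23 genes of the list. The shares were 17.1% of all promoters, 11.5% of all genes measured, 11.3% of genes called higher and 10.3% of genes called lower. Where it was not found, these letters are not in the 250 bases searched, and nothing more follows.

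Of 26 matrix metalloproteinases, ADAMTS proteases and inhibitors 9 rose and 0 fell (median 0.20). *Timp1*, an inhibitor of these proteases, read 5.66, 5.53, 6.77 and 6.87 in naïve cornea and 11.13, 11.99, 12.25 and 12.43 with treatment (5.74, SE 0.32, adjusted p = 1.3e-08), and *Mmp3*, stromelysin, rose by 5.64 (adjusted p = 2.7e-08). *Mmp13*, a collagenase, read 3.74, 3.50, 3.40 and 3.22 in naïve cornea and 8.05, 7.82, 9.27 and 8.75 with treatment, a log2 difference of 5.01 (adjusted p = 1.6e-08), without overlap. *Mmp9*, the gelatinase of neutrophils and wound-edge epithelium, rose by 3.59 and *Mmp2*, the gelatinase of keratocytes, by 1.29. *Adamts5*, which cleaves aggrecan and versican, read 7.12, 7.44, 7.08 and 7.25 without and 9.28, 9.92, 10.13 and 8.87 with treatment and 8.15, 8.66, 8.68 and 8.84 with IgG. It was the member of this list that also stood above IgG (0.97, adjusted p = 0.015). *Mmp14*, the brightest member, a membrane-bound activator of *Mmp2*, was 0.39 (not called).

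An AP-1 site, TGACTCA or TGAGTCA, lay in the 250 bases before the start of 5 of 20 genes of the protease list. The shares were 3.98% of all promoters, 3.46% of all genes measured, 5.65% of genes called higher and 3.96% of genes called lower. It is shown in capitals for *Mmp3* and *Mmp13*, in which it begins 71 and 66 bases before the start.
Mmp3 (chr8:12925161-12925280, plus strand): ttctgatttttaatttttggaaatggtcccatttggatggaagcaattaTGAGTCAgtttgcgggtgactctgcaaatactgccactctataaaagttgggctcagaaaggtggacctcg
Mmp13 (chr8:12782709-12782828, plus strand): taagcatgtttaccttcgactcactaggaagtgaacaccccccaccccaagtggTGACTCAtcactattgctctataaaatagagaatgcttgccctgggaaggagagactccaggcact

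The provisional matrix of the wound was among the lists with the largest shares higher, with 15 of 30 genes risen and 1 fallen (median 0.55). *Vcan*, the proteoglycan versican, read 5.08, 4.62, 5.40 and 4.82 on the naïve arrays and 7.12, 9.33, 9.51 and 8.84 on the treated arrays (3.72, adjusted p = 1.0e-05). F25 was well under the other treated arrays and still above every naïve array. *Lox*, which cross-links collagen and elastin, read 10.77, 10.40, 10.12 and 10.19 without and 12.28, 12.77, 12.64 and 12.04 with treatment, and *Tnc* and *Spp1*, the matricellular proteins tenascin C and osteopontin, rose by 2.41 and 2.38. *Spp1* was highest on F25. *Tgfbi*, a matrix protein abundant in corneal stroma, rose by 1.81, while *Sparc* was -0.09 (not called). *Fbln5*, which organises elastic fibres, fell by 1.19 (adjusted p = 0.00025). Of 20 basement membrane genes 6 rose and 0 fell. *Lamb3* and *Lama3*, chains of the laminin under epithelial hemidesmosomes, rose by 1.68 and 1.22, and *Lama4* by 1.82. *Lama5* rose by 0.83, a call lost with the mean of its probe sets, and *Nid2*, a nidogen, by 0.96, a call lost without naïve arrays 3 and 4, while *Nid1* was -0.01 (not called). *Col4a1* read 9.34, 9.28, 9.64 and 9.09 in naïve cornea, 9.33, 9.34, 9.46 and 9.37 with dexamethasone and 7.71, 8.41, 8.93 and 8.33 with IgG. The treated arrays overlapped the naïve ones (0.03) and were 1.03 above IgG (adjusted p = 0.0048). *Col4a2*, *Col4a5* and *Col4a6* were 0.55, 0.77 and 0.37 above IgG. Against IgG 5 basement membrane genes were called, and the count was 1 with the beta-actin difference as a covariate and 1 when F27 was left out. Without F26, F30 or a single IgG array it was 2 or 3.

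Of 24 other collagens 2 rose and 5 fell. *Col14a1*, which binds collagen fibrils and limits their width, read 10.68, 10.89, 10.53 and 10.59 in naïve cornea and 9.75, 8.95, 9.32 and 9.08 with treatment (-1.40, adjusted p = 4.5e-05), and *Col24a1* fell by 1.09. *Col25a1*, a membrane collagen, read 8.25, 8.42, 7.47 and 6.97 without and 5.96, 5.45, 5.58 and 3.99 with treatment (-2.53, adjusted p = 0.0012). *Col8a1*, of Descemet's membrane, fell by 1.09, a call lost without naïve array 1 or 2. *Col18a1*, the precursor of endostatin, rose by 1.59, and *Col1a2*, a chain of the main stromal collagen, was -0.38 (not called). The count of 5 lower became 3 without naïve array 1, 3 without naïve arrays 1 and 2, 8 without naïve array 3, 9 without naïve arrays 3 and 4 and 9 with the mean of probe sets. Of 19 stromal proteoglycans and keratocyte genes 4 rose and 4 fell. *Bgn*, biglycan, rose by 0.71 and *Nt5e*, which makes adenosine, by 0.99. *Chad*, chondroadherin, a leucine-rich matrix protein, read 9.95, 9.73, 9.34 and 9.46 in naïve cornea and 7.24, 7.04, 6.81 and 6.97 with treatment (-2.61, adjusted p = 1.6e-07), *Ogn*, osteoglycin, fell by 0.99, a call lost without F27, F30 or naïve array 1, 2 or 4, and *B3gnt7*, which extends keratan sulfate chains, fell by 1.12 (adjusted p = 0.0033). Of 10 keratocyte markers 2 rose and 1 fell. *Vim*, the filament protein of keratocytes, fibroblasts and leukocytes, and *Pdgfra*, a receptor for platelet-derived growth factor, rose by 2.61 and 1.88, and *Col5a1* fell by 0.71, a call lost without F25, F27 or naïve array 1. Of 18 integrin subunits 5 rose and 0 fell: beside *Itgb2* these were *Itga1*, *Itgb3*, *Itga6*, which anchors hemidesmosomes, and *Itgax*, of dendritic cells (1.07, 0.79, 0.67 and 0.66). The call of *Itga1* was lost without naïve arrays 3 and 4, and that of *Itgax* without F26 or naïve array 3.

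Genes of plasminogen activation and clotting were higher in 10 of 20 cases and lower in 1 (median 0.89). *Serpinb2*, the plasminogen activator inhibitor PAI-2, read 2.94, 2.88, 2.74 and 2.89 in naïve cornea, near the bottom of the scale, and 8.15, 8.28, 7.18 and 8.16 with treatment, a log2 difference of 5.08 (adjusted p = 2.7e-09), which the low naïve signal can understate. *Serpine2*, protease nexin, rose by 3.24, and *Plau* and *Plaur*, urokinase and its receptor, by 1.35 and 1.24. *Procr* and *Pros1*, of the anticoagulant protein C pathway, rose by 1.76 and 1.58, and *F2r*, the thrombin receptor, by 1.39. *Tfpi*, the inhibitor of tissue factor, moved the other way: 9.90, 10.48, 10.43 and 10.31 in naïve cornea became 9.16, 9.45, 9.13 and 8.77 with treatment (-1.15, adjusted p = 2.5e-05). It was also below IgG (-0.69, adjusted p = 0.0057), although *Tfpi2*, its relative in matrix, rose by 2.52. The call of *Plaur* was lost without naïve arrays 1 and 2. *Anxa2*, which binds plasminogen and its activator on cells, was 0.11 (not called).

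Of 16 keratins 2 rose and 0 fell, a share of 12.5% beside 12.6% of all genes. *Krt17*, a keratin of wounded epithelium, read 6.10, 6.19, 6.82 and 6.45 in naïve cornea and 10.27, 11.82, 10.47 and 12.52 with treatment (4.88, SE 0.40, adjusted p = 5.6e-07), and *Krt14*, of basal cells, rose by 1.56. Of 23 genes of cornification and shedding 5 rose and 0 fell against naïve cornea, yet 11 were lower and 0 higher than with IgG (median -0.58 against IgG). *Stfa3*, a cysteine protease inhibitor of the stefin family, read 6.75, 6.93, 7.67 and 7.95 in naïve cornea, 8.88, 10.69, 8.71 and 10.24 with dexamethasone and 11.81, 12.29, 12.71 and 10.77 with IgG. The dexamethasone arrays lay between the references, above naïve (2.31) and below IgG (-2.26, adjusted p = 0.0013 and 0.0048). *Dmkn*, a secreted keratinocyte protein, had the same order (7.78, 7.30, 8.24 and 7.48 naïve, 9.10, 10.10, 8.97 and 9.01 treated, 10.56, 10.80, 10.83 and 10.68 IgG). *Cnfn*, cornifelin, was likewise above naïve (1.70) and below IgG (-1.17), and *Tgm1*, which cross-links the envelope, rose by 1.02, a call lost without F26, F30 or naïve array 1 or 2. *Sprr1a* was 0.34 against naïve (under the fold limit) and -0.57 against IgG (adjusted p = 0.005). *Sprr3* and *Klk8*, a precursor of the cornified envelope and a protease of shedding, did not pass against naïve cornea (-0.93 and 0.03) and were -2.62 and -1.37 against IgG. The 11 genes became 7 without IgG array F19 or F22, 8 without F25 and 8 with the beta-actin difference as a covariate. Of 32 junction genes 1 rose and 4 fell, a share of 15.6%. *Cldn8*, a claudin of tight junctions, read 9.64, 9.70, 9.81 and 9.83 without and 9.06, 7.53, 8.22 and 7.96 with treatment (-1.55). *Dsg1*, a desmosomal cadherin of upper epithelial layers, fell by 0.83 (adjusted p = 6.7e-05). *Cldn10* and *Cgn*, cingulin, fell by 0.88 and 0.76, calls lost without naïve arrays 1 and 2 and without naïve arrays 3 and 4, respectively. *Cldn1* rose by 0.62, a call lost without F27 or naïve array 2 and with centring on reference genes, and *Dsp*, desmoplakin, was -0.12 (not called).

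Of 23 transcription factors of corneal epithelium and stroma 2 rose and 1 fell, a share of 13% beside 12.6% of all genes. *Zeb2*, a repressor of epithelial genes that macrophages also express, rose by 1.97 and *Klf6* by 0.82. *Foxp2* fell by 1.22, a call lost without naïve arrays 1 and 2, a setting in which 4 members were called higher. *Klf4*, the brightest, was -0.29 (under the fold limit). Of 8 corneal endothelium markers 1 rose (*Nectin3*, 0.96) and 2 fell (*Slc4a11* and *Col8a1*). The *Nectin3* call was lost without naïve arrays 3 and 4. Of the falls 1 was called without naïve array 1 or 2, and neither when both were left out. *Tjp1*, a tight junction scaffold, was -0.30 (not called).

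Of 20 AP-1 and immediate early genes 9 rose and 0 fell. *Atf3*, a stress-induced repressor, read 6.20, 5.99, 5.21 and 4.95 on the naïve arrays and 6.55, 9.39, 8.05 and 8.32 on F25, F26, F27 and F30, and *Egr1* read 11.33, 10.18, 8.59 and 9.81 and 10.86, 11.84, 12.24 and 13.06. Naïve arrays 1 and 2 were above arrays 3 and 4 for *Atf3*, F25 overlapped the naïve range for *Egr1*, and the count of 9 became 4 when naïve arrays 3 and 4 were left out, the *Egr1* call among those lost. *Fos* rose by 2.07 (adjusted p = 0.016), a call lost without F26 or naïve array 3, and its second probe set was -0.01. *Myc*, which drives growth, did not show this: its naïve arrays read 8.44, 8.36, 8.58 and 8.61 and its treated arrays 9.89, 10.78, 10.21 and 10.61 (1.88, adjusted p = 1.2e-06). *Fosl1*, the AP-1 subunit of migrating epithelium, rose by 1.44. Of 31 EGF-family and other epithelial growth factors 6 rose and 1 fell. *Areg*, a ligand of the EGF receptor, rose by 1.92 (adjusted p = 5.9e-06), *Nrg1* by 1.23 and *Tgfa* by 0.76, whereas *Egf* fell by 0.90 (adjusted p = 0.00018). *Igfbp7* rose by 0.93 and *Igfbp2*, another binding protein of insulin-like growth factors, was -0.30 (not called).

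Cell cycle genes were among the lists with the largest shares higher. Of 46, 30 rose and 0 fell against naïve cornea (median 0.71), and 34 were higher and 2 lower than with IgG (median 0.57). The mean log2 signal of the list lay between 8.45 and 8.69 on naïve arrays, 8.51 and 8.82 on IgG arrays and 9.07 and 9.35 on dexamethasone arrays, with no overlap of the last with the other two. All 6 subunits of the replicative helicase were called: *Mcm2*, *Mcm3*, *Mcm4*, *Mcm5*, *Mcm6* and *Mcm7* rose by 0.98, 0.99, 1.04, 0.96, 1.36 and 1.00. *Mcm6* read 8.83, 8.55, 8.75 and 9.05 in naïve cornea, 9.79, 10.36, 10.35 and 10.13 with dexamethasone and 9.03, 9.54, 9.64 and 9.58 with IgG. *Aurka*, a spindle kinase, read 7.37, 7.12, 7.10 and 7.20 without and 8.27, 8.34, 8.31 and 8.11 with treatment, and *Cdk1* and *Ccna2*, the kinase and a cyclin of S phase and mitosis, rose by 0.83 and 1.00. *Cdkn3*, a phosphatase that acts on cyclin-dependent kinases, rose by 1.14 and was 0.74 above IgG. *Mki67* rose by 0.84 (adjusted p = 0.026) with overlapping arrays, as naïve arrays 1 and 2 read 9.83 and 9.89, and the call was lost without F25, F26, F27 or naïve array 3 or 4. Against IgG *Aurka*, *Top2a*, a topoisomerase of dividing cells, and *Mki67* were 0.87, 1.04 and 1.00 (limma, adjusted p = 0.0011, 0.0011 and 0.022). Not all members followed: *Ccnd1*, the brightest, was -0.46 against naïve (under the fold limit), *Ccnd2*, a cyclin of G1, was 0.96 against naïve and -0.90 against IgG, and *Cdkn2b*, a G1 inhibitor, was -0.49 (not called) and -0.90. With 1 array left out in turn the count against naïve ranged from 24 to 33 and that against IgG from 25 to 35, and with the beta-actin difference as a covariate they were 30 and 29.

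E2F sites (TTTGGCGC, TTTCCCGC, TTTGCCGC or TTTCGCGC on either strand) lay in the 250 bases before the start of 6 of 37 cell cycle genes. The shares were 1.81% of all promoters, 2.94% of all genes measured, 3.09% of genes called higher and 2.57% of genes called lower. They are shown in capitals for *Mcm6* and *Mcm5*, beginning 135 and 139 bases before the start of *Mcm6*, where 2 matches overlap, and 8 bases before that of *Mcm5*.
Mcm6 (chr13:42404353-42404502, minus strand): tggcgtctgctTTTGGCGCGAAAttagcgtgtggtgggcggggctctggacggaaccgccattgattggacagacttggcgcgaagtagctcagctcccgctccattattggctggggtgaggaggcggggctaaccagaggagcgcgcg
Mcm5 (chr19:13488693-13488812, plus strand): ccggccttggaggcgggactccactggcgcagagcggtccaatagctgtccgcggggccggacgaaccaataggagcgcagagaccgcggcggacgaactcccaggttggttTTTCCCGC

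**Figure D3:**
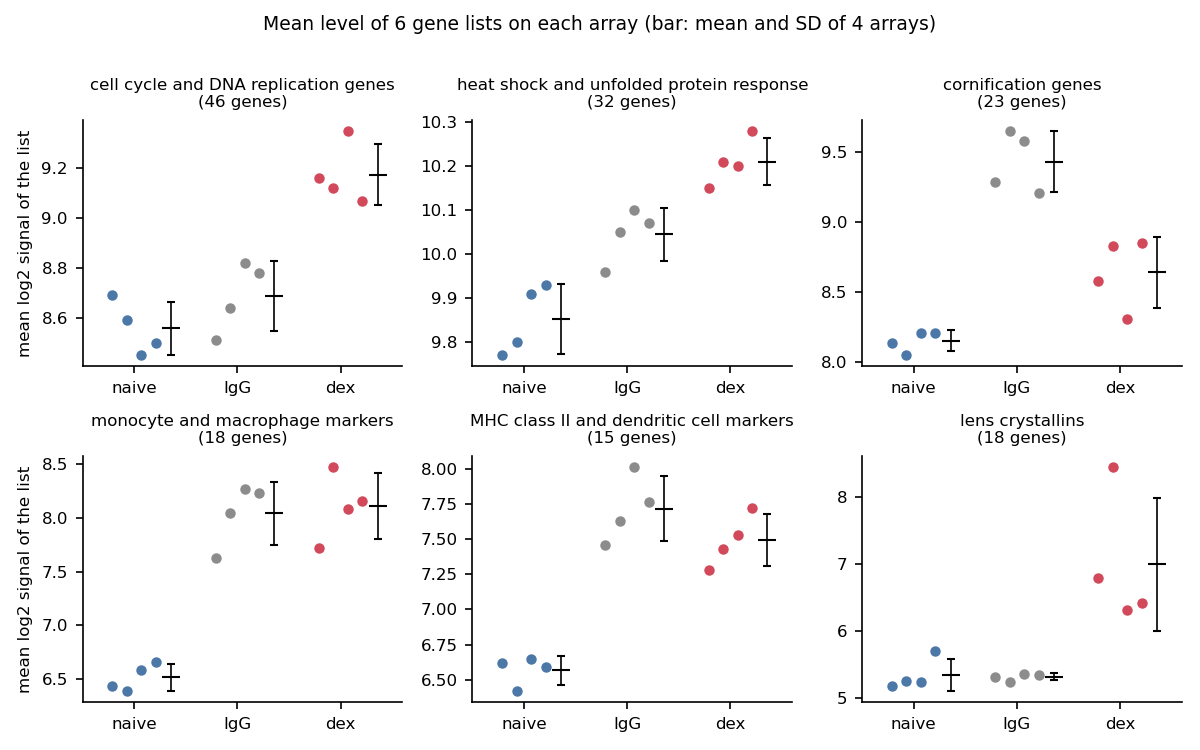
Mean log2 signal of 6 gene lists on each naïve (blue), IgG (grey) and dexamethasone (red) array, with the mean and SD of 4 arrays. Dexamethasone arrays lie above both references for cell cycle genes, for heat shock and unfolded protein response genes and for lens genes, between them for cornification genes, and overlap the IgG arrays for macrophage and MHC class II markers.

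Of 32 genes of the heat shock and unfolded protein responses 12 rose and 1 fell (median 0.36), and 9 were above IgG. *Hsp90b1*, an endoplasmic chaperone, read 11.18, 11.17, 11.13 and 11.07 in naïve cornea and 11.90, 11.90, 12.02 and 11.96 with treatment (0.81, SE 0.08, adjusted p = 3.7e-06). *Hspa5*, the BiP protein that senses unfolded proteins, *Pdia6*, a disulfide isomerase, and *Calr* rose by 0.69, 0.80 and 0.69, and *Hspd1* and *Hspe1*, the mitochondrial chaperonins, by 0.65 and 0.69, calls lost without naïve arrays 1 and 2. *Sdf2l1*, of the endoplasmic reticulum, and the cytosolic chaperones *Hsph1* and *Hsp90ab1* rose by 1.05, 0.85 and 0.69. *Hspa1a*, the inducible cytosolic chaperone, moved the other way, from 11.83, 12.06, 11.92 and 12.02 to 11.20, 10.69, 10.90 and 10.92 (-1.03, adjusted p = 0.00017). The 9 genes above IgG became 5 without IgG array F17 and 14 with the beta-actin difference as a covariate.

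Glycolytic and hypoxia genes rose in 10 of 32 cases and fell in 3, while 0 of 39 subunits of the respiratory chain were called in either direction by limma at the 1.5-fold limit (median 0.06). Of these subunits 7 had an unadjusted p under 0.05 and 5 an adjusted one, and *Atp5pb*, the brightest, was 0.07. The count of 10 was 16 without naïve arrays 3 and 4, and that of 3 was 1 without F27 and 5 without naïve arrays 1 and 2. *Slc16a1*, the lactate and pyruvate carrier MCT1, read 7.32, 7.10, 7.61 and 7.77 without and 8.82, 9.65, 9.45 and 9.19 with treatment (1.83, adjusted p = 1.7e-06). *Ldha*, which makes lactate, rose by 0.89 and *Ldhb*, the isoform that favours pyruvate, fell by 1.16 (adjusted p = 0.0056). *P4ha1*, a hypoxia-induced collagen prolyl hydroxylase, was above naïve and IgG by 0.68 and 0.68, the first a call lost without F26. *Slc16a3*, a lactate exporter, *Ndrg1*, a hypoxia-induced gene, and *Tpi1*, a glycolytic enzyme, rose by 1.60, 1.41 and 1.37. Of 30 genes of cholesterol and fatty acid synthesis 6 rose. *Fads1*, a desaturase that makes arachidonic acid, read 8.93, 8.91, 8.91 and 8.95 in naïve cornea and 10.23, 10.66, 10.90 and 10.83 with treatment, and *Scd*, which makes oleate, rose by 1.21 and stood 1.38 above IgG (adjusted p = 0.0049). *Elovl5*, an elongase, rose by 0.75, a call lost with the mean of its probe sets, and *Idi1* and *Lss*, of sterol synthesis, by 0.71 and 0.63. The *Idi1* call was lost without F26 or naïve array 2, and that of *Lss* without F25, F26, F30 or naïve array 1 or 2. *Scd2* was -0.14 (not called).

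Enzymes of lipid mediators changed in both directions: 5 of 24 rose and 3 fell. *Ptgs1*, *Ptgs2* and *Ptges*, the 2 cyclooxygenases and a prostaglandin E synthase, rose by 2.27, 1.69 and 2.20, and *Alox5ap*, needed for leukotriene synthesis, by 2.27. *Ptgs2* read 8.81, 9.91, 10.13 and 9.53 on the treated arrays and 8.27, 9.98, 9.70 and 10.15 with IgG, a difference of 0.07 (adjusted p = 0.94). *Alox15* and *Alox12*, lipoxygenases that give hydroxy acids and lipoxin precursors, read 7.69, 7.60, 8.18 and 7.76 and 8.41, 8.51, 8.53 and 8.45 on the naïve arrays. With treatment they read 6.49, 5.89, 6.23 and 6.35 and 7.38, 6.24, 6.38 and 7.52, without overlap (-1.57 and -1.59, adjusted p = 4.2e-06 and 0.0001). *Akr1c3*, an aldo-keto reductase of prostaglandins and steroids, read 9.10, 8.86, 9.78 and 9.44 in naïve cornea, 7.91, 6.76, 6.52 and 7.65 with dexamethasone and 9.59, 9.82, 9.43 and 8.97 with IgG. It was lower than both references (-2.09 and -2.24, adjusted p = 5.7e-05 and 0.00021).

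Of 39 antioxidant and aldehyde enzymes 9 rose and 3 fell. *Sod2*, the mitochondrial superoxide dismutase, rose by 2.31 and *Cybb*, the catalytic subunit of the phagocyte oxidase, by 2.33. *Gpx3*, the secreted glutathione peroxidase, read 7.29, 8.10, 8.09 and 7.49 in naïve cornea, 9.60, 8.98, 9.10 and 8.68 with dexamethasone and 7.85, 7.99, 8.41 and 8.32 with IgG, and was above both (1.35 and 0.95, adjusted p = 0.00016 and 0.0077). *Nox1*, an oxidase of epithelia, fell from 7.11, 7.95, 7.31 and 7.47 to 5.41, 5.74, 5.28 and 5.67 (-1.94, adjusted p = 8.3e-07) and *Nqo1*, a quinone reductase, fell by 1.17. *Akr1b8*, an aldose reductase, rose by 1.58, a call lost without F30 or naïve array 2, and *Txn1*, thioredoxin, was 0.10 (not called).

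Of 25 retinoid genes 8 rose and 3 fell. *Lrat*, which esterifies retinol for storage, read 4.32, 4.72, 4.70 and 4.11 in naïve cornea, 4.99, 6.0, 6.77 and 6.82 with dexamethasone and 8.95, 9.13, 9.04 and 9.13 with IgG. The 3 groups did not overlap, and dexamethasone lay above naïve (1.68) and below IgG (-2.92, adjusted p = 0.0032 and 0.00024). *Rbp2*, an intracellular retinol carrier, had the same order (1.34 and -0.87). *Aldh1a1*, which makes retinoic acid, fell by 0.75. The count of 3 lower was 5 without naïve array 2, 5 without naïve arrays 1 and 2 and 5 with centring on reference genes. *Rarres2*, the chemoattractant chemerin, rose by 3.90 against naïve cornea. *Cyp26b1* and *Cyp26a1*, which encode enzymes that degrade retinoic acid, went apart. *Cyp26b1* rose by 1.76, whereas *Cyp26a1* read 7.18, 6.89, 7.75 and 6.67 in naïve cornea and 5.36, 5.09, 4.78 and 5.42 with treatment (-1.96, limma, adjusted p = 0.00015).

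Signals of the TGF-β family rose in 11 of 32 cases and fell in 3. *Bmp4* read 5.57, 5.71, 6.09 and 6.31 without and 7.13, 8.00, 7.72 and 7.82 with treatment (1.75, adjusted p = 4.7e-06), *Inhbb*, a subunit of activin, rose by 1.65 and *Fstl3*, which neutralises activins, by 1.34. *Bmp7* and *Fst*, the activin inhibitor follistatin, fell by 0.69 and 0.92. *Id1* and *Id3*, which BMPs induce, rose by 1.02 and 1.24, and *Id2* fell by 0.61, a call lost without F26 or naïve array 2. The count of 11 became 7 when naïve arrays 3 and 4 were left out, and that of 3 became 1 when naïve arrays 1 and 2 and 5 when naïve array 4 was left out. The calls of *Id3* and *Fst* were lost without naïve arrays 1 and 2 and that of *Bmp7* without naïve arrays 3 and 4.

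Of 30 Wnt genes 8 fell and 2 rose (median -0.03), the largest share lower of any process list on all arrays. That order did not hold with fewer arrays, as 8 of 17 circadian clock genes fell without naïve arrays 1 and 2 and 8 of 24 collagens without naïve array 3. *Wnt16* read 7.83, 7.76, 7.72 and 6.95 on the naïve arrays and 5.82, 4.43, 5.51 and 5.41 on the treated arrays (-2.27, adjusted p = 8.8e-05). F26 was the lowest treated array, naïve array 4 the lowest naïve array, and the groups did not overlap. *Dkk3*, a secreted protein of the Dickkopf family, read 11.33, 11.27, 11.28 and 10.94 without and 9.78, 8.69, 9.54 and 9.56 with treatment. The ligands *Wnt2*, *Wnt6* and *Wnt11* and the receptor *Fzd8* fell by 1.40, 0.90, 1.14 and 1.21, and the inhibitor *Sfrp1* by 0.75. *Fzd8* was also below IgG (-0.58, adjusted p = 0.025). The receptor *Lrp5* and the inhibitor *Frzb* rose by 0.65 and 0.70 and were above IgG by 0.49 and 0.62. The *Lrp5* call was lost without naïve array 4, that of *Wnt11* without naïve arrays 3 and 4, that of *Wnt6* without naïve arrays 1 and 2 and with the mean of its probe sets, and that of *Sfrp1* with the mean of its probe sets. *Wnt4*, the brightest, was -0.32 (not called). Of 17 circadian clock genes 1 rose and 3 fell. *Nfil3*, a repressor, rose by 1.34, and *Bhlhe41*, *Hlf* and *Per3* fell by 1.25, 0.95 and 0.70. The *Bhlhe41* call was lost without F27 or naïve array 3 or 4, that of *Hlf* without naïve arrays 1 and 2 and that of *Per3* without naïve arrays 3 and 4.

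*Gad1*, which makes GABA, had the largest fall without overlap: it read 9.54, 9.56, 8.12 and 7.75 in naïve cornea, 6.19, 4.62, 6.40 and 5.27 with treatment and 5.38, 4.74, 4.99 and 4.62 with IgG (-3.13, SE 0.48, adjusted p = 0.00022). Of 16 GABA and neural genes 1 rose (*Slc1a1*, a glutamate carrier, 1.10) and 2 fell (*Gad1* and *Gap43*), and *Glul*, glutamine synthetase, was -0.41 (not called). *Asic4*, of the acid-sensing ion channel family, read 7.73, 7.65, 8.69 and 7.88 in naïve cornea and 5.73, 5.14, 5.66 and 5.52 with treatment (-2.48, adjusted p = 5.4e-06). *Ptpro*, a receptor tyrosine phosphatase, read 9.20, 8.91, 9.22 and 8.96 without and 6.51, 6.45, 6.66 and 7.27 with treatment, and *Susd4*, an inhibitor of complement activation, 9.52, 9.27, 9.22 and 9.07 without and 7.04, 6.69, 6.59 and 7.11 with treatment. None of the 3 overlapped its naïve arrays, and their differences from IgG (-0.37, -0.51 and 0.02) did not pass. *Unc13c*, a synaptic vesicle priming factor, *Dync1i1*, an intermediate chain of dynein, and *Elmod1* fell by 2.25, 2.06 and 2.05. *Ccdc141*, a coiled-coil protein, fell by 2.44. *Gap43*, the growth cone protein, read 7.75, 7.74, 8.08 and 7.90 in naïve cornea and 6.22, 5.74, 5.75 and 6.30 with treatment and was below IgG too (-1.86 and -0.59, adjusted p = 5.9e-08 and 0.0071). Of 11 markers of Schwann cells and nerves 1 was called lower (*S100b*), a share of 9.09% beside 12.6% of all genes. That call was lost without any array but F25 or naïve array 3, and *Sox10* and *Mbp* were -0.05 and -0.11 (not called). *Car3*, carbonic anhydrase 3, fell by 2.13 and *Slc4a11*, the ion transporter of corneal endothelium, by 0.76 (adjusted p = 0.0065), the latter a call lost without naïve arrays 1 and 2. Of 30 genes of ion, bicarbonate and water transport 5 rose and 2 fell, and 1 fell without naïve arrays 1 and 2. *Slc4a7*, a bicarbonate carrier, and *Clca2* rose by 1.90 and 1.26, and *Aqp3*, the epithelial water and glycerol channel, was -0.33 (under the fold limit). *Sdcbp2*, a syntenin, and *LOC102554403* were below both references (-1.19 and -1.96 against naïve, -1.65 and -1.52 against IgG), the former without naïve arrays 3 and 4 no longer called against naïve.

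**Figure D4:**
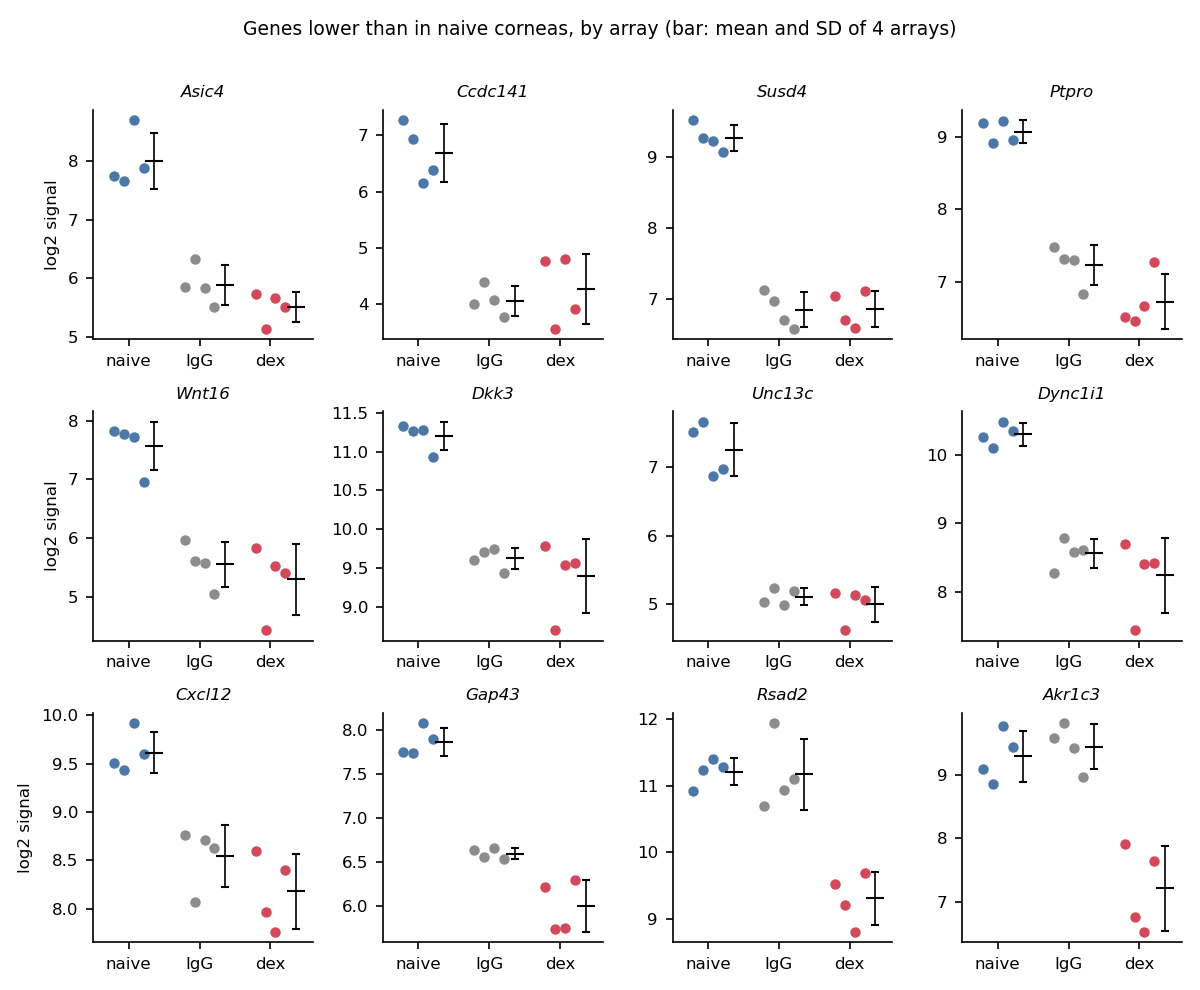
Log2 signal of 12 genes lower with dexamethasone than in naïve cornea, on each naïve (blue), IgG (grey) and dexamethasone (red) array, with the mean and SD of 4 arrays. The IgG arrays lie near the dexamethasone arrays for *Asic4* to *Cxcl12*, above them for *Gap43*, and near the naïve arrays for *Rsad2* and *Akr1c3*.

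Of 15 markers of MHC class II and dendritic cells 7 rose and 1 fell (median 0.58). *RT1-Da*, a class II alpha chain, read 7.81, 6.60, 7.62 and 7.20 in naïve cornea and 9.39, 9.62, 10.04 and 10.30 with treatment, and *Cd74*, the invariant chain, read 8.24, 7.32, 7.90 and 7.66 and 9.73, 10.15, 10.31 and 10.61 (2.42, adjusted p = 6.0e-07). No array overlapped for either. *RT1-Bb* and *RT1-Ba* rose by 2.36 and 1.73. The *RT1-Bb* call was lost without F26, F27, F30 or naïve array 2, 3 or 4, and that of *RT1-Ba* with the mean of its probe sets. *RT1-Db1* and *Clec9a*, a lectin of dendritic cells, were below IgG (-0.70 and -0.85, adjusted p = 0.044 and 0.047). *Cd83*, a marker of mature dendritic cells, fell by 0.74. These multigene families share sequence, so signals of their probe sets are uncertain between members. Of 26 proteasome and antigen processing genes 7 rose, with the immunoproteasome subunits *Psmb8*, *Psmb9* and *Psmb10* at 1.18, 1.25 and 0.88 and the peptide transporter *Tap1* at 1.04, and *B2m*, the light chain of class I, at 0.92. The *Tap1* call was lost with the mean of its probe sets, the other of which was -0.05. Their naïve array 4 was the highest naïve array and the 7 became 4 when naïve arrays 1 and 2 were left out.

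Of 28 interferon response genes 6 rose and 3 fell, and 4 were lower than with IgG. Without naïve arrays 1 and 2 the falls were 1. *Gbp2*, a guanylate-binding protein, rose by 2.91, *Irf9* by 1.23 and *Bst2*, tetherin, by 1.36. *Ifi27* was 0.24 (not called). *Rsad2*, viperin, which blocks virus replication, read 10.92, 11.24, 11.40 and 11.29 in naïve cornea, 9.53, 9.20, 8.80 and 9.69 with dexamethasone and 10.70, 11.94, 10.94 and 11.11 with IgG. The dexamethasone arrays were below all others (-1.91 against naïve, -1.87 against IgG, adjusted p = 3.8e-05 and 0.0003), and *Oasl* fell by 1.19 against naïve cornea, a call lost without naïve arrays 1 and 2. *Socs3*, the feedback inhibitor of cytokine signalling, rose by 1.39 and was below IgG (-1.24, adjusted p = 0.005). Of 18 antimicrobial effectors 10 rose and 2 fell. *Reg3g*, a lectin that kills bacteria, read 4.35, 4.50, 4.16 and 4.64 in naïve cornea, 4.74, 5.50, 6.21 and 6.35 with dexamethasone and 9.40, 8.36, 8.43 and 7.09 with IgG (1.29 against naïve, adjusted p = 0.032, -2.62 against IgG, adjusted p = 0.0011), and the call against naïve cornea was lost without any array but F25 or naïve array 4. *Lyz2*, the lysozyme of macrophages, rose by 3.14 and was 0.72 above IgG. *Defb1*, a constitutive defensin, and *Pigr*, which carries IgA across epithelia, fell by 0.86 and 1.59, the former a call lost without naïve arrays 3 and 4. *Defb4*, an inducible defensin, and *Slpi*, an inhibitor of leukocyte elastase, rose by 2.58 and 2.12. Of 13 S100 proteins 4 rose and 1 fell. Beside calprotectin these were *S100a4* and *S100a6* (2.93 and 2.08) and *S100b* in the other direction, and *S100a11* was -0.04 (not called).

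Among the largest rises without overlap, *Chi3l1*, a chitinase-like lectin of macrophages and wounded tissue, read 5.21, 4.91, 5.22 and 5.52 in naïve cornea and 10.25, 11.35, 11.10 and 11.54 with treatment (5.84, SE 0.26, adjusted p = 1.8e-09). *Serpinb10*, an intracellular serpin, and *Srgn*, serglycin, the proteoglycan of leukocyte granules, rose by 3.96 and 3.94. Their differences from IgG (0.36, 0.15 and 0.28) did not pass. Of 30 apoptosis genes 6 rose and 0 fell. *Bcl2a1*, a survival factor of leukocytes, *Gadd45g*, a stress gene, and *Casp4*, an inflammatory caspase, rose by 1.85, 1.66 and 1.21, and *Birc5*, survivin, and *Bid* by 0.82 and 0.80. The *Bid* call was lost with the mean of its probe sets, and *Mcl1* was -0.08 (not called).

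Of 18 genes of the lens, a tissue behind the cornea, 12 rose and 0 fell against naïve cornea (median 1.43), and 10 were above IgG (median 1.38). *Cryba1*, a beta-crystallin of lens fibres, read 4.12, 4.05, 4.31 and 6.12 on the naïve arrays, 9.68, 11.74, 8.44 and 7.73 on F25, F26, F27 and F30 and 4.13, 3.90, 4.09 and 4.19 with IgG. F26 was the highest array, naïve array 4 stood about 2 log2 units above the other naïve arrays, and no treated array overlapped (4.75, SE 0.67, adjusted p = 0.0001). *Cryaa*, the alpha-crystallin of the lens, was also highest on F26 and, among naïve arrays, on array 4. It read 5.21, 5.20, 5.04 and 6.75 in naïve cornea and 9.26, 11.31, 8.13 and 8.19 with treatment. *Crybb2*, *Crygs*, *Crygb* and *Cryba2* rose by 4.18, 2.78, 2.59 and 1.97. *Grifin*, a galectin-related lens protein, and *Lims2*, which are in none of the lists, were above naïve by 2.27 and 1.82 and above IgG by 2.10 and 1.96. *Cryab*, which many tissues express, was not called against naïve cornea (-0.03). *Bfsp1* rose (0.99), while *Mip*, the lens water channel, was called (0.77, adjusted p = 0.038) with overlapping arrays, a call lost without F25, F26 or naïve array 1, 2 or 4. Without F26, 11 of the 18 were called, and with a low signal filter 7. The mean log2 signal of the list was 5.18, 5.26, 5.25 and 5.71 on naïve arrays 1 to 4 and 6.80, 8.45, 6.32 and 6.43 on the treated arrays. Of 10 markers of iris, ciliary body and retina 3 rose: *Sag*, the arrestin of rods, read 6.27, 5.35, 6.19 and 5.62 in naïve cornea, 6.94, 8.62, 8.95 and 7.50 with treatment and 6.77, 8.40, 7.28 and 7.0 with IgG, and *Gnat1* and *Pde6b* rose by 1.60 and 1.14. Their part in the other results was not tested.

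**Figure D5:**
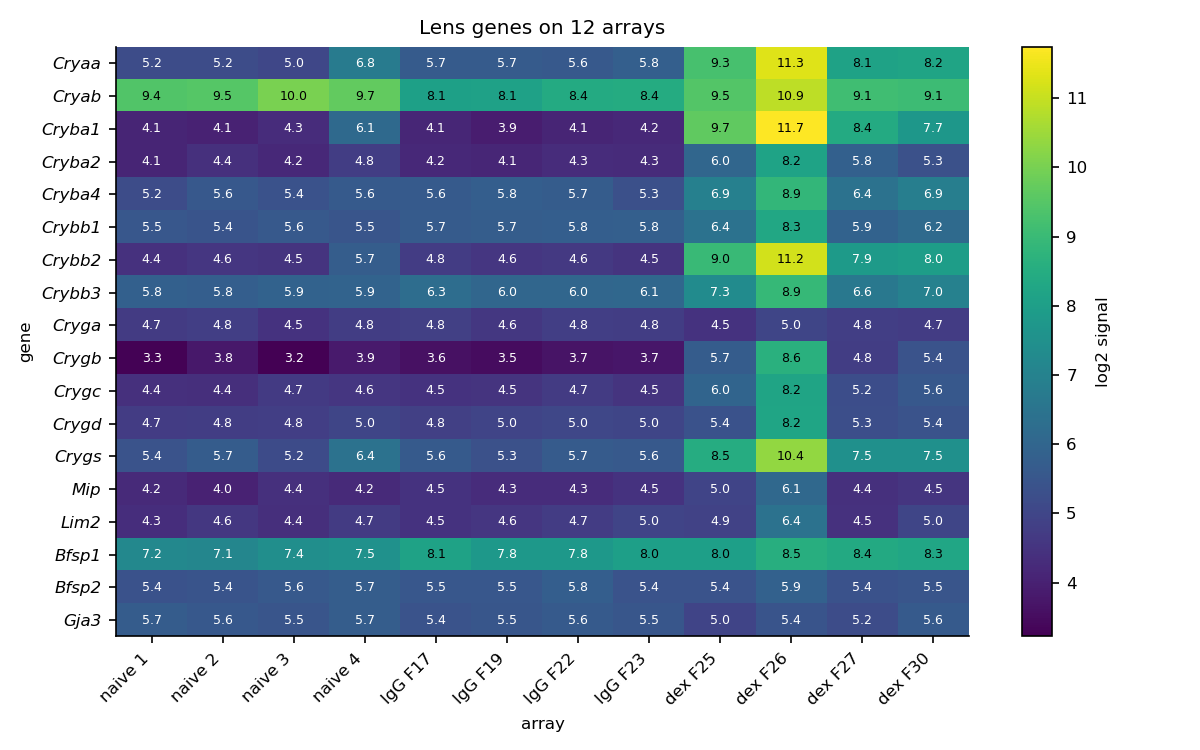
Log2 signal of 18 lens genes (rows) on 4 naïve, 4 IgG and 4 dexamethasone arrays (columns), with each value printed to 1 decimal and a colour scale in log2 units. F26 holds the highest value of most crystallins, naïve array 4 the highest of the naïve arrays for *Cryaa*, *Cryba1* and *Crybb2*, and the IgG arrays read near the naïve ones for most rows, with *Cryab* lower and *Bfsp1* higher.

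Of 15 markers of vessel endothelium 2 rose and 0 fell, a share of 13.3% beside 12.6% of all genes. The count was 1 without naïve arrays 1 and 2. *Vcam1*, which activated endothelium and fibroblasts display, rose by 3.40 (adjusted p = 1.6e-08), whereas *Pecam1*, *Cldn5* and *Kdr* were 0.09, -0.01 and -0.34, none of which passed. *Icam2*, a constitutive ligand of leukocyte integrins, rose by 0.80, the call that was lost. Of 34 angiogenic genes 6 rose and 1 fell. *Esm1*, a marker of sprouting tip cells, read 3.84, 3.82, 3.88 and 4.16 in naïve cornea and 5.78, 7.87, 7.0 and 7.10 with treatment, and *Angpt2*, which loosens vessel walls, fell by 0.96 and was below IgG (-0.72, adjusted p = 0.0031). The signal of *Angpt2* was low, with 5.42 on naïve array 3 and at most 4.93 on the other naïve arrays. With a low signal filter 0 angiogenic genes were called lower. *Vegfa*, *Angptl4* and *Edn1*, endothelin 1, rose by 1.91, 1.61 and 1.25, and *Serpinf1*, an inhibitor of vessel growth, was -0.15 (not called). *Pdpn*, found on lymphatic endothelium and on wounded epithelium and fibroblasts, rose by 2.44. Of 6 lymphatic markers *Lyve1* also rose (0.77) and *Reln* fell by 0.64, calls lost without F25 or naïve array 2 or 3, and that of *Lyve1* also without F27 or naïve array 4. Of 12 markers of pericytes and smooth muscle (8.33% called) *Tagln* rose (0.97), a call lost without F25, F27 or naïve array 4, and *Acta2* was 0.21 (not called). Of 9 mast cell markers (11.1% called) *Kit* fell by 0.77, a call lost without naïve arrays 3 and 4, and *Tpsb2* was -0.20 (not called). Of 14 skeletal muscle markers (7.14% called) *Myh2* fell by 0.89, a call lost without F25, F26 or naïve array 1 or 3, and *Myh1* was 0.37 (not called). Of 5 red blood cell markers *Ahsp* fell by 0.74 and *Hbb*, beta-globin, was 0.30 (not called). Of 6 pigment cell markers *Dct* fell, a share of 16.7%, from 7.82, 7.30, 7.91 and 7.78 to 6.91, 6.26, 6.36 and 6.12.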

How the data were processed

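RNA of rat cornea was hybridised to 16 single-channel Affymetrix arrays. The authors made the deposited log2 values from the scans with Expression Console and RMA, per the labels, that is with background correction, quantile normalization and a summary per probe set, so differences in total RNA between arrays were already removed. The version of Expression Console and any batch of hybridisation are not given in the sources used here. From these values limma 3.58.1 in R 4.3.3 fitted a mean for each group over all 16 arrays, which left 12 residual degrees of freedom, and adjusted p-values by Benjamini-Hochberg over the 31042 probe sets left after 57 controls. Genes came from GEO's platform annotation: 20826 probe sets had 1 symbol, 436 several and 9780 none, and 20758 were found in RefSeq. A gene with several probe sets (4525) was read from the one with the highest mean signal. Control probe sets were compared by exact two-sided permutation tests.

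The arrays of each group follow from the labels, whereas the comparison described and the 64 gene lists were chosen with earlier results of these data known. Named were the 15 largest rises and falls without overlap, up to 5 called members of each list with its brightest member, the 10 largest differences from IgG each way, and other list members needed to account for a complex, pair or marker list. Of 368 genes named, 298 come under the earlier clauses and 70 come under that last clause or were picked after their values were seen. The fit was tested on simulated data. Arrays have no read depth, and 4 per group limit the precision. Alternatives covered the arrays in the fit, moderation, array weights, normalization, a signal filter, the probe set rule, the fold limit and single arrays. A covariate for RNA length and the loss of naïve pairs were added after seeing the data.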

Additional observations from a re-analysis of the deposited data

Results flagged for a closer look

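Of 736 groups of 4 arrays checked for the genes named, 30 (4.08%) held an array that stood apart from the other 3, and chance alone marks about 1 in 20 such groups. Values are log2 signals, each with the nearest other array of its group. On naïve array 1 the genes standing apart were *C1s* (9.27, above 8.76) and *Saa3* (4.94, below 5.38). On naïve array 2 the genes standing apart were *Cdkn3* (9.41, below 9.76) and *Pecam1* (5.59, above 5.15). On naïve array 3 the genes standing apart were *Angpt2* (5.42, above 4.93), *Ccr1* (4.66, below 4.87) and *Mmp3* (5.66, above 4.09). On naïve array 4 the genes standing apart were *Aif1* (4.94, above 4.28), *Cd53* (4.86, below 5.34), *Cldn10* (9.29, below 9.85), *Cnfn* (7.99, above 7.45), *Cryaa* (6.75, above 5.21), *Cryba1* (6.12, above 4.31), *Crybb2* (5.74, above 4.57), *Dkk3* (10.94, below 11.27), *Esm1* (4.16, above 3.88), *Lrp5* (6.31, below 6.56) and *Wnt16* (6.95, below 7.72). On dexamethasone array F25 the genes standing apart were *Aldh1a1* (12.51, above 12.30), *Csf1r* (6.34, below 7.03), *Cxcl2* (8.14, below 10.30) and *Gbp2* (10.34, below 12.16). On dexamethasone array F26 the genes standing apart were *Dmkn* (10.10, above 9.10), *Lyz2* (12.77, above 12.03) and *Slc30a1* (6.37, below 6.87). On dexamethasone array F27 the genes standing apart were *Col8a1* (9.90, above 9.42), *Klk8* (6.78, below 7.84), *Myh1* (11.28, above 10.81) and *Serpinb2* (7.18, below 8.14). On dexamethasone array F30 it was *Ctss* (9.10, above 9.09).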

How the results depend on the processing

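Against naïve cornea the count of 1797 DEGs was 4049 with no fold limit and otherwise 1622 (without F26) to 2016 (without F25), 1865 without naïve arrays 1 and 2 and 2034 without naïve arrays 3 and 4. Against IgG the count of 1503 was 456 with the 1.5-fold limit. It was 1067 with a fit on the 2 groups only. It ranged from 890 to 1494 when 1 array was left out, the first without IgG array F19 and the last without F30, and was 963 without F26 and 941 without F27. It was 1627 with the beta-actin difference as a covariate and 1937 with array weights. The causes were not tested. No paired analysis was possible because the dexamethasone, IgG and naïve arrays share no replicate numbers. The 4 arrays a group limit what can be called, and low signals near the floor of the scale compress fold changes.
Of 315 named genes called against naïve cornea 247 kept the call under every setting in which they were scored. Of the others 31 lost it without 1 array, each named with those arrays above except *Top2a* (F27), and 0 reversed. Named genes removed by the low signal filter were not scored under it. The counts of kept calls, here and against IgG, therefore leave out losses to that filter. Of 95 called against IgG 49 kept the call and 34 lost it without 1 array: *Adamts5*, *Alox12*, *Bid*, *C1s*, *Clec9a*, *Cnfn*, *Col4a2*, *Col4a5*, *Col4a6*, *Cp*, *Ctss*, *Cxcr4*, *Defb1*, *Dsg1*, *Fzd8*, *Hspa5*, *Itga6*, *Lama5*, *Lox*, *Lrp5*, *Lyz2*, *Mcm2*, *Mcm5*, *Mki67*, *Myh1*, *Nfkbia*, *Pdia6*, *RT1-Db1*, *Scnn1b*, *Serpinb2*, *Slc30a1*, *Tlr7*, *Tnfaip3* and *Vcan*. The difference of *Itga6* from IgG turned to -0.201 with the mean of its probe sets. Calls against naïve cornea were lost without naïve arrays 1 and 2 for *Ackr4*, *Akr1b8*, *Cd8a*, *Cldn10*, *Col5a1*, *Col8a1*, *Cxcl3*, *Cxcr4*, *Foxp2*, *Fst*, *Hlf*, *Hspd1*, *Hspe1*, *Icam2*, *Id2*, *Id3*, *Idi1*, *Il24*, *Lss*, *Ly96*, *Lyve1*, *Mip*, *Nr3c1*, *Oasl*, *Ogn*, *Plaur*, *Psmb10*, *Psmb8*, *Pycard*, *RT1-Bb*, *Reg3g*, *S100b*, *Slc4a11*, *Tagln*, *Tgm1* and *Wnt6*, without naïve arrays 3 and 4 for *Bhlhe41*, *Bmp7*, *Cd8a*, *Cgn*, *Cxcr4*, *Defb1*, *Egr1*, *Fos*, *Il24*, *Itga1*, *Itgax*, *Kit*, *Lrp5*, *Lyve1*, *Mip*, *Mki67*, *Myh2*, *Nectin3*, *Nid2*, *Per3*, *RT1-Bb*, *Reg3g*, *S100b*, *Sdcbp2*, *Sgk1*, *Tagln*, *Top2a*, *Tsc22d3*, *Wnt11* and *Zfp36*, and with the mean of probe sets for *Bid*, *Cd8a*, *Elovl5*, *Fgb*, *Icam2*, *Il1r1*, *Lama5*, *Lrp5*, *Nectin3*, *Per3*, *RT1-Ba*, *Reln*, *Sfrp1*, *Tap1* and *Wnt6*.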
